A study of Mus musculus with 15 samples.

Results

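The genes described here were next to silent in mouse embryonic fibroblasts at day 0 and were expressed in every later condition, with or without adipogenic treatment. They were selected on their measured levels. CPM is the count of a gene per 1e6 counts of its sample, and a gene was taken when its mean over 3 samples was under 0.5 CPM in MEFD0 and at least 2 CPM in each of MEFD3min, MEFD3plu, MEFD5min and MEFD5plu. Of 46603 genes in the files, 52 met this rule, and 51 of them are protein coding. The step from day 0 to the later groups is therefore set by the selection and is given only as values. The comparisons tested are those among the 4 later groups, which had to pass the same minimum in both groups compared.

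By the labels, all cells were MEFs of wild-type BALB/c mice from embryos aged 10.5 days. They were measured by RNA-Seq, with 3 samples per condition that carry the replicate numbers 1, 3 and 4. MEFD0 was sampled at day 0, before treatment. MEFD3plu and MEFD5plu received, over 3 days, the Pparg agonist rosiglitazone at 10 µM, insulin at 10 µg/mL, the glucocorticoid dexamethasone at 1 µM and the phosphodiesterase blocker IBMX at 0.5 mM, and MEFD5plu was then kept in growth medium for 2 days more. MEFD3min and MEFD5min stayed in DMEM with serum and got none of these agents. Every later group therefore shares the time in culture after day 0, and the plu and min groups of a day differ in the agents. From MEFD3plu to MEFD5plu, more time in culture and the end of the agents go together and cannot be told apart. The methods speak in general of independent experiments and do not say whether these replicates came from separate embryos or cultures, so p-values measure only the spread between these samples, which may be technical.

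MEFs are connective tissue cells that grow out of dissociated embryos, and a share of them can turn into adipocytes when given hormones and a Pparg agonist. Fibroblasts that crowd a dish stop dividing, secrete matrix, growth factors and plasma-type proteins, and can sense viral or self nucleic acids. Such sensing leads to type I interferon, a secreted signal that makes the producing cells and their neighbours express antiviral genes through the interferon-stimulated response element (ISRE), a short motif near the start of many of those genes.

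The promoters of 5 members are shown. Those of Ifi206, Ifi208 and Ifi205 are the 3 listed member promoters that hold an ISRE, so its presence in them is set by the choice. These genes also moved in the same direction in the comparisons below. Those of Steap4 and Kng2 are examples of a C/EBP motif. All 5 promoters are 300 bases long, from 250 before to 50 after the RefSeq start on GRCm38.p6, and are written 5′ to 3′ on the strand of the gene. Capitals mark the ISRE in Ifi206 (chr1:173491269-173491568, minus strand), Ifi208 (chr1:173673415-173673714, plus strand) and Ifi205 (chr1:174031706-174032005, minus strand). In Steap4 (chr5:7960222-7960521, plus strand) and Kng2 (chr16:23029052-23029351, minus strand) they mark the C/EBP motif TTGCNNAA on either strand, the letters bound by a family of adipogenic and inflammatory transcription factors.
Ifi206: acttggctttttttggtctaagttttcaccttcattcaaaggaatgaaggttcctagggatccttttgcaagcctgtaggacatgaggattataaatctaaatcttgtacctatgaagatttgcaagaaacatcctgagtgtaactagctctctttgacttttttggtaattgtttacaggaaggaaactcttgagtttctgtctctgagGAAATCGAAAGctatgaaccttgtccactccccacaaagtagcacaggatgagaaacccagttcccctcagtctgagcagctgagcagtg
Ifi208: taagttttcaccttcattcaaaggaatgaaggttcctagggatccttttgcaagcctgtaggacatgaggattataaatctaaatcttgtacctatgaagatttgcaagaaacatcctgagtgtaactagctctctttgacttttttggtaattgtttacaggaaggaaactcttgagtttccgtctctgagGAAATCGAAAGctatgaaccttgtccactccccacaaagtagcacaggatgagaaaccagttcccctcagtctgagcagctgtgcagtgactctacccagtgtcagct
Ifi205: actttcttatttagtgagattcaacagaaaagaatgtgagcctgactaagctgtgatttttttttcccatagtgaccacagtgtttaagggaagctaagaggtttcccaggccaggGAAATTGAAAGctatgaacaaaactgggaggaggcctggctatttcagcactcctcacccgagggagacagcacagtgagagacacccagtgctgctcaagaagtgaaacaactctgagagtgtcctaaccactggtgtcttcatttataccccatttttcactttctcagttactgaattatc
Steap4: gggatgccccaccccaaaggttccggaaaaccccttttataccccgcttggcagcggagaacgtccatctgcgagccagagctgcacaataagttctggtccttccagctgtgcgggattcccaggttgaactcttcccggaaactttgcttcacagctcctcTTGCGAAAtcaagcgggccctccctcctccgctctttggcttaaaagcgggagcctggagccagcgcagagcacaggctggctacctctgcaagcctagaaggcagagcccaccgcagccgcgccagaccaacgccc
Kng2: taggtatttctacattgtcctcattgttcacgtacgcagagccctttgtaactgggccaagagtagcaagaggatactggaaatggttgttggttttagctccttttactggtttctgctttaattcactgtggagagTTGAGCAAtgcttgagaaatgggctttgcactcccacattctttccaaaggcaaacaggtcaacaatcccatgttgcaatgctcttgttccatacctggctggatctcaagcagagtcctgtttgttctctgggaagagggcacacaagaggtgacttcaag

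The Ifi206 and Ifi208 promoters had 253 of 282 bases in common at the offset of their longest shared run, which was 182 bases long. Ifi205 shared no run longer than 13 bases with either, and its ISRE lay 134 bases before the start, against 40 in Ifi206 and 58 in Ifi208. Promoters were listed for 33 of the 52 members, as 41 entries, since some genes have several starts. The ISRE was in 3 of the 41 entries (7.32%), those of Ifi206, Ifi208 and Ifi205, and in 1.92% of all 32851 listed promoters. Mpeg1 and Slfn2, which are also interferon-inducible and moved the same way, had listed promoters without it. The C/EBP motif was in 11 entries of 9 members (26.8%, against 10.8% of all), namely Bmf, Fmo2, Ifi206, Ifi208, Kng2, Ms4a4d, Slfn2, Steap4 and Tmem229b. The TATA box, TATAAA, was in 11 entries (26.8%, against 13.6%). Of the other letters searched on both strands, AP-1 (TGANTCA) was in 2.44% of the entries against 7.81% of all, STAT (TTCNNNGAA) in 7.32% against 8.30%, the kappa-B motif in 12.2% against 8.46%, the CArG box in 2.44% against 1.63% and the PPAR DR1 element in 2.44% against 0.633%. The CRE, TGACGTCA, was in 0 of 41 against 1.79%. The median member entry held 6 CpG pairs and the median of all promoters 7. A match describes the letters and shows neither a bound site nor a cause.

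Total counts per sample lay between 24030558 and 37281126. Replicates of a group differed by more than sampling noise in all 15 pairs, where chi-square over its degrees of freedom was 4.39 to 79.7. The 12 fibroblast markers listed for this check summed to 11502 to 36148 CPM. In each group 0 of them were at the floor of at most 3 counts in every sample of the group. Vim had a mean of 6939 CPM in MEFD0, where Dcn had 16.2 and Lum 0.815 CPM. By the test described below, 10 of the 12 were lower and 1 higher in treated cells at day 3. At day 5, 4 were lower and 3 higher. The 14 adipocyte markers summed to 22.1 to 54.6 CPM in the untreated groups and to 4597 to 7809 CPM in the treated groups. Among the members, MEFD5min replicate 3 was the lowest sample of its group for 47 of 52 genes, and MEFD5plu replicate 3 for 46. Counts of calls without both of them, a choice made after seeing the data, stand beside the main counts.

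At day 0, 33390 genes were under 0.5 CPM, and 540 of these reached 2 CPM in at least 1 later group. The most common pattern was that of 132 genes that reached it in both treated groups and no other, followed by 99 in MEFD5plu alone and 73 in MEFD3plu alone. The 52 members are the genes that reached it in all 4. A further 56 reached it in all later groups but MEFD3plu, and 23 in both untreated groups alone. The reverse pattern, at least 2 CPM at day 0 and under 0.5 in all 4 later groups, held for 4 genes.

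**Figure D1:**
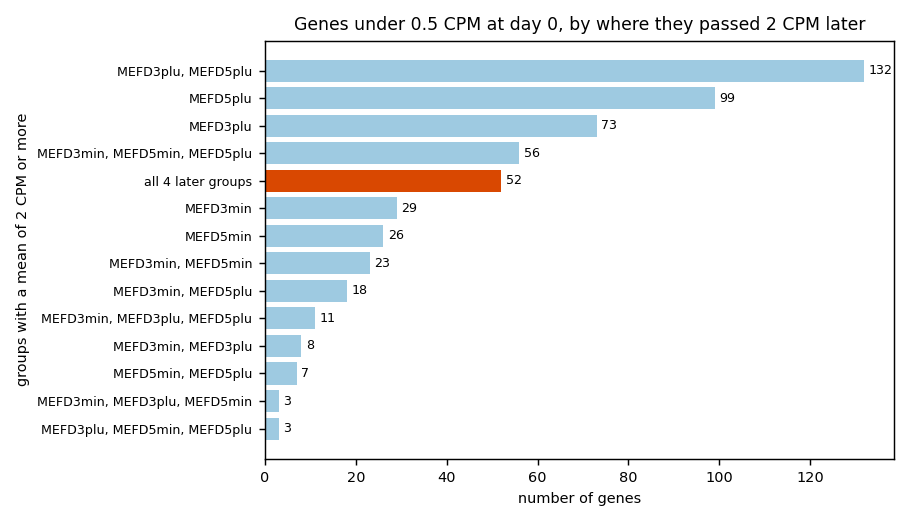
Number of genes (x axis) under 0.5 CPM in MEFD0, by the later groups in which their mean reached 2 CPM (y axis, 1 bar a pattern). The 52 genes in all 4 later groups, the orange bar, stand below the 132 in both treated groups alone and beside the 56 in all but MEFD3plu.

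The members were not all at 0 at day 0. Their counts summed over the 3 MEFD0 libraries ran from 1 to 49, and 12 of them were at the floor of 3 counts in each library. Together the 52 genes summed to 7.66 to 10.0 CPM in MEFD0, 1068 to 1145 CPM in MEFD3min and 1587 to 1707 CPM in MEFD3plu. At day 5 the sums were 490.1 to 799 CPM in MEFD5min and 3212 to 3685 CPM in MEFD5plu. The lowest later sample lay above the highest day 0 sample for all 52, which the selection nearly fixes. Nearest to the day 0 limit inside the rule were Rtn2 (0.488 CPM), Slfn2 (0.477) and 3930402G23Rik (0.448), and just outside were Lama4 (0.505), Dhrs3 (0.516) and Angptl7 (0.524). Nearest to the later limit were B3gnt8 (2.24 CPM in its lowest later group), Ifi208 (2.26) and Mpeg1 (2.29), and just outside were Ikzf4 (1.97), Pgr (1.96) and Gria4 (1.96).

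**Figure D2:**
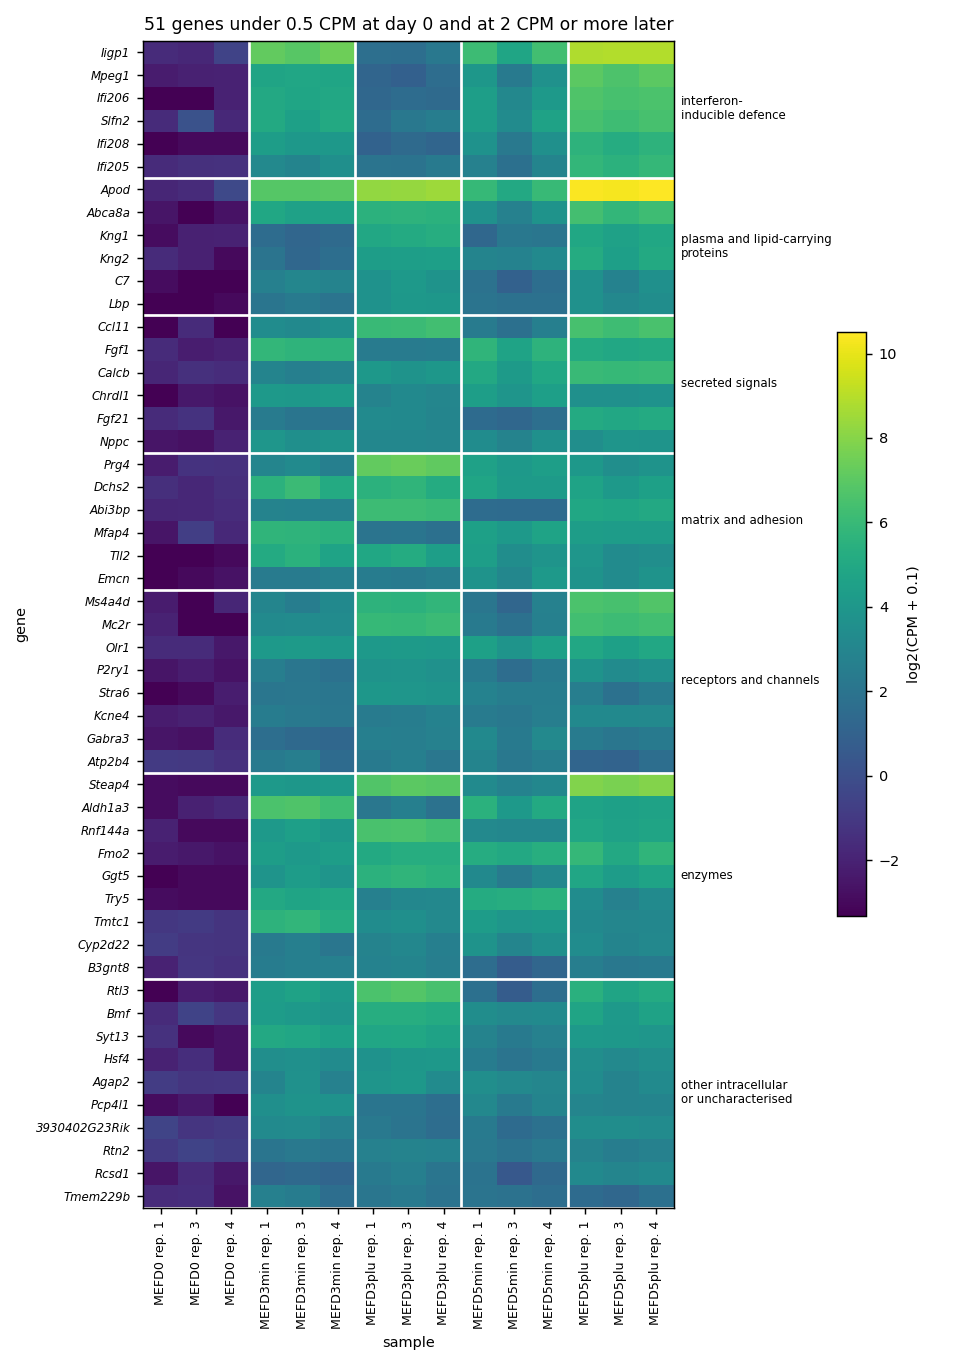
Level of each of 51 of the genes (rows, grouped by role) in each of the 15 samples (columns, 3 a group), coloured by log2(CPM + 0.1). The MEFD0 columns are dark in every row, while the later columns differ between genes. By group mean, the interferon-inducible genes are the lowest of the later groups in MEFD3plu and the highest in MEFD5plu.

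The 52 genes shared their day 0 state and differed widely afterwards. The highest later group mean was more than 10 times the lowest for 19 of them and less than 2 times for 6, with a median ratio of 5.15. The highest group was MEFD5plu for 20 genes, MEFD3plu for 17, MEFD3min for 9 and MEFD5min for 6. At day 3, 28 members were higher and 15 lower in treated cells by the quasi-likelihood test of edgeR, adjusted after Benjamini and Hochberg, where 28.0% of the 15997 genes tested were higher and 28.0% lower. At day 5, 35 were higher and 6 lower in treated cells, against 26.3% and 24.2% of all genes, and 34 and 8 without both day 5 samples numbered 3. The median absolute log2 fold change was 1.45 at day 3 and 1.47 at day 5 among the members, and 0.49 and 0.42 over all genes. The number of members lower at day 5 was 3 without MEFD5min replicate 1 and also 3 without MEFD5plu replicate 3. Counts by role and by gene list below are to be read beside the shares of all genes, and no role or list was tested as a set.

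The treatment differences of both days were compared by the interaction, the log2 fold change of day 3 minus that of day 5. It passed the same test as negative for 28 members and as positive for 6, against 25.8% and 22.6% of all genes. Without both day 5 samples numbered 3 the counts were 26 and 5. Higher in treated cells at both days were 23 members, against 12.4% of all genes, and lower at both were 3, against 9.45%. Of the others, 8 were lower in treated cells at day 3 and higher at day 5, against 6.23% of all genes, 2 were higher and then lower, against 5.31%, and 4 passed at neither day, against 26.8%. In untreated cells 30 members fell and 8 rose from day 3 to day 5, against 21.5% and 21.3% of all genes, with 26 and 11 without both samples. From MEFD3plu to MEFD5plu 25 rose and 14 fell, against 33.8% and 29.2%, with 28 and 11 without both samples. A falling level in untreated cells met a rising one in treated cells for 16 members, against 6.12% of all genes. With scaling by library totals only, higher genes as a share of all called went from 52.1% to 37.0% at day 5. The share went from 46.7% to 59.5% in the interaction and from 49.7% to 62.7% between MEFD3min and MEFD5min. Of 15997 genes, this scaling called 3072 higher and 5231 lower at day 5 and 4735 and 3220 in the interaction. Between the untreated groups it called 4302 and 2564. The members gave 33 higher and 6 lower, 9 and 26, and 10 and 29, in that order.

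**Figure D3:**
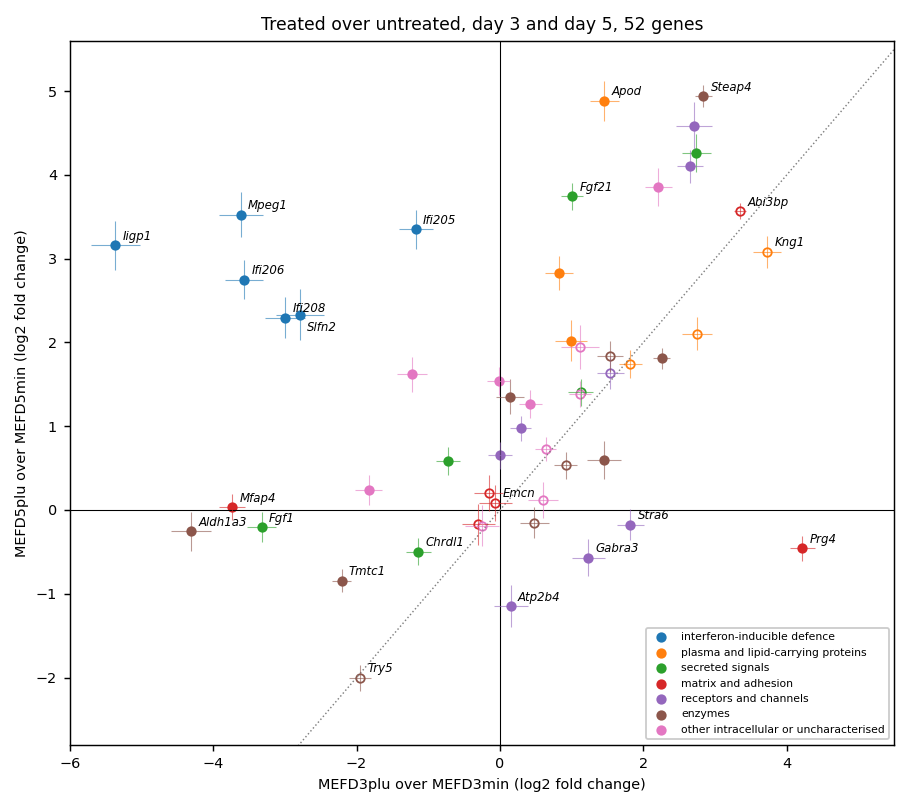
Log2 fold change of treated over untreated cells at day 3 (x axis) and at day 5 (y axis) for the 52 genes, coloured by role, with standard errors as bars. Filled points passed the interaction and open points did not, and the dotted line marks equal changes. The 6 interferon-inducible genes lie at the upper left, from -5.36 to -1.17 at day 3 and from 2.29 to 3.52 at day 5, and Prg4 lies at the far right, at 4.22 and -0.46.

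A group of 6 members are interferon-inducible genes of antiviral and antibacterial defence. All 6 were lower in treated cells at day 3, with log2 fold changes of -5.36 to -1.17, and the reverse held at day 5, at 2.29 to 3.52 (edgeR, same test). Iigp1, an interferon-inducible GTPase that attacks the vacuoles of intracellular parasites, had 0.221, 0.195 and 0.590 CPM in MEFD0 and 147, 120 and 173 CPM in MEFD3min. It had 3.21, 3.08 and 4.45 CPM in MEFD3plu, 70.8, 27.4 and 78.6 CPM in MEFD5min, and 463, 472 and 488 CPM in MEFD5plu. The 5 groups did not overlap, with MEFD3plu closest to day 0 and MEFD5plu highest. The log2 fold change of Iigp1 was -5.36 at day 3 (standard error 0.35, adjusted p = 6.48e-10) and 3.16 at day 5 (0.29, adjusted p = 1.60e-07, same test), and its interaction of -8.52 was the most negative of the members. In bulk samples such as these, fewer cells expressing a gene and less RNA per cell cannot be told apart.

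Mpeg1, which encodes perforin-2, a pore-forming protein that kills engulfed bacteria, followed the same order. It had 26.7, 29.3 and 28.2 CPM in MEFD3min, 2.17, 1.76 and 2.95 CPM in MEFD3plu, 16.1, 5.12 and 12.8 CPM in MEFD5min and 129, 98.3 and 129 CPM in MEFD5plu. These groups did not overlap, and the log2 fold changes were -3.61 at day 3 and 3.52 at day 5 (standard errors 0.30 and 0.27). Mpeg1 is also known from macrophages. The 16 macrophage markers listed for this check summed to 7.83 to 21.5 CPM in all samples, and 9 to 11 of them were at the floor in each group, with Adgre1, C1qa and C1qb at 0 in every sample. Mrc1 and Lyz2, also on the list, were above their day 0 level in each later group and lowest of these in MEFD3plu, like Mpeg1. From MEFD0 to MEFD5plu in the order of the plots, Mrc1 had means of 0.841, 4.96, 1.79, 5.97 and 5.07 CPM and Lyz2 of 0.392, 2.39, 1.27, 2.4 and 2.58 CPM, while Cd14 was highest at day 0, at 9.99 CPM. Of the 5 macrophage markers tested, 0 were higher and 3 lower in treated cells at day 3. At day 5, 0 were higher and 2 lower, while Mpeg1 was higher. The part of such cells in the Mpeg1 result was not tested beyond these values.

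The Ifi200 family members Ifi206, Ifi208 and Ifi205, DNA-binding proteins of the innate immune response, lie in 1 cluster on chromosome 1 of GRCm38. Ifi206 spans 173468485 to 173491041, Ifi208 173673675 to 173698395 and Ifi205 174011998 to 174031810, with 3 coding genes between the first pair and 6 between the second, all of them of the same family. Ifi206 had 32.8, 27.9 and 30.7 CPM in MEFD3min, 2.34, 2.83 and 2.60 CPM in MEFD3plu, 21.1, 8.53 and 17.6 CPM in MEFD5min and 101, 89.5 and 96.5 CPM in MEFD5plu. Its log2 fold changes of -3.57 and 2.75 stood beside -3.00 and 2.29 for Ifi208 and -1.17 and 3.35 for Ifi205. Ifi205 thus had the smallest difference of the 6 at day 3, with 9.14, 7.41 and 11.7 CPM in MEFD3min and 3.89, 3.68 and 5.07 CPM in MEFD3plu, and still no overlap. Ifi206 has 25.6%, Ifi208 20.9% and Ifi205 18.6% of its 50-base stretches also in other genes, most in Ifi208, Ifi213 and Ifi211, so reads may be split between them.

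Slfn2, a Schlafen family regulator of immune cell quiescence, had 33.7, 22.8 and 33.5 CPM in MEFD3min, 2.83, 4.56 and 5.63 CPM in MEFD3plu, 21, 10.1 and 24.5 CPM in MEFD5min and 90.5, 73.8 and 88.3 CPM in MEFD5plu. The interactions of the 6 ran from -8.52 to -4.52, and under 22 alternatives, the minimum of 2-fold not among them, none of their calls at day 3, at day 5 or in the interaction was lost. Between MEFD3min and MEFD5min all 6 were lower at the later time, at -1.41 to -0.76, but for Slfn2 this call was lost in 12 alternatives and for Ifi205 in 4, among them the one without MEFD5min replicate 3. None of the 6 is on the list of 22 interferon response genes taken for comparison. All 22 of that list were lower with treatment at day 3 and higher at day 5 by the same test. They summed to 126 to 137 CPM in MEFD0, 3638 to 4573 in MEFD3min, 68.8 to 73.8 in MEFD3plu, 1008 to 2310 in MEFD5min and 7477 to 7884 in MEFD5plu. They are not members because 14 of them had at least 0.5 CPM at day 0, 7 reached 2 CPM in all later groups but MEFD3plu and 1 in MEFD5plu alone.

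**Figure D4:**
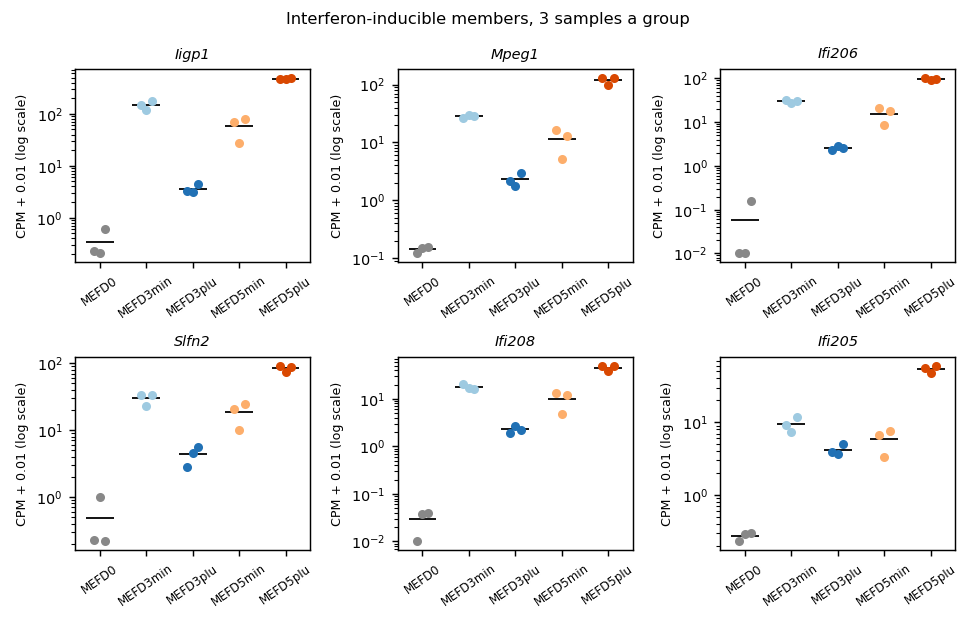
CPM (log axis, 0.01 added) of the 6 interferon-inducible members in the 5 groups, with 1 point a sample and a line at the mean of 3. In each panel MEFD5plu is highest and MEFD3plu is the lowest of the later groups, at means of 2.26 to 4.34 CPM.

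Plasma and lipid-carrying proteins formed a group of 6, and all 6 were higher in treated cells at both days, by 0.82 to 3.73 on the log2 scale at day 3 and 1.74 to 4.88 at day 5 (same test). Apod, a lipocalin that carries small lipids, was the most abundant of the 52 genes per exon length. Its mean was 182 RPKM (CPM per kilobase of exon) over the later samples, ahead of Ccl11 at 39.7 and Steap4 at 29.7. Apod lies on chromosome 16 from 31296192 to 31314808. Apod had 0.184, 0.223 and 0.738 CPM in MEFD0, 118, 114 and 123 CPM in MEFD3min and 311, 323 and 352 CPM in MEFD3plu. It had 60.4, 32.3 and 62.5 CPM in MEFD5min and 1387, 1288 and 1446 CPM in MEFD5plu. Untreated cells thus lost Apod between the days while treated cells gained it, with changes of -1.29 and 2.14 (standard errors 0.21 and 0.21). The treatment difference was 1.46 at day 3 and 4.88 at day 5 (adjusted p = 1.12e-05 and 3.68e-11, same test), and the interaction was -3.43.

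Kng1 and Kng2 encode kininogens, from which the peptide bradykinin is cut, and are neighbours on chromosome 16 with no coding gene in the 28382 bases between them. Kng1 had 2.86, 2.30 and 2.60 CPM in MEFD3min, 31.2, 34.4 and 38.3 CPM in MEFD3plu, 2.36, 4.54 and 4.20 CPM in MEFD5min and 29.5, 23.7 and 29.9 CPM in MEFD5plu. Treated and untreated samples stood far apart at both days, with log2 fold changes of 3.73 and 3.08 (standard errors 0.20 and 0.19). Kng2 rose less, by 2.75 and 2.1. Neither interaction passed (0.65 and 0.64, adjusted p = 0.0566 and 0.0705, same test), though that of Kng1 passed in 7 alternatives and that of Kng2 in 5, and the genes share 17.2% and 19.4% of their 50-base stretches, mostly with each other. Abca8a, an ABC transporter of lipids, was at the floor in MEFD0 and reached 83.0, 56.5 and 72.9 CPM in MEFD5plu, at least 751-fold higher. Abca8a differed by 0.82 at day 3 and by 2.83 at day 5. C7, a terminal complement protein, and Lbp, which binds bacterial lipopolysaccharide, were named after their values were seen, with 0.99 and 1.82 at day 3 and 2.02 and 1.74 at day 5. The list of adipokine and lipid transport genes, which holds Apod, gave 14 higher and 5 lower of 19 tested at day 3 and 18 higher and 1 lower at day 5.

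Of 6 secreted signals, treatment left 3 higher and 3 lower at day 3, and 4 higher and 1 lower at day 5. Over all genes 28.0% were higher and 28.0% lower at day 3, and 26.3% and 24.2% at day 5. The same shares stand beside the counts of the other roles and lists. Ccl11, the eosinophil attractant eotaxin, had 10.4, 9.35 and 11.8 CPM in MEFD3min, 65.9, 69.0 and 78.8 CPM in MEFD3plu, 5.24, 3.33 and 6.06 CPM in MEFD5min and 89.4, 74.7 and 92.0 CPM in MEFD5plu. Treated and untreated samples did not overlap, at log2 fold changes of 2.74 and 4.26 (standard errors 0.21 and 0.23). Of the 19 tested chemokines and cytokines listed, 4 were higher and 11 lower at day 3, and 12 higher and 4 lower at day 5. Chrdl1, a secreted antagonist of BMP signals, was lower in treated cells at both days, at -1.14 and -0.50 (adjusted p = 2.04e-05 and 0.0184, same test). Its day 5 call was lost in 4 alternatives that each left out a single sample, MEFD5min replicate 1 or 4 or MEFD5plu replicate 1 or 3, at adjusted p-values of 0.0562 to 0.0762.

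The other 4 signals were named after their values were seen. Fgf1, a growth factor for fibroblasts and adipose tissue, had 57.8, 51.3 and 49.6 CPM in MEFD3min against 5.31, 5.31 and 5.39 CPM in MEFD3plu. At day 5 it had 51.9, 25.9 and 49.5 CPM in MEFD5min and 35.2, 31.0 and 33.0 CPM in MEFD5plu, and the groups overlapped. The day 3 difference was -3.33 (standard error 0.20), and that of day 5 was -0.21 (0.18, adjusted p = 0.354, same test) but passed without MEFD5min replicate 3, at -0.47. Fgf21, a hormone of energy balance, was higher in treated cells by 1.00 at day 3 and 3.74 at day 5, where it had 2.76, 2.33 and 3.17 CPM in MEFD5min and 34.3, 30.9 and 35 CPM in MEFD5plu. Calcb, which encodes the vasodilator peptide beta-CGRP, rose from day 3 to day 5 by 1.87 in untreated and 2.15 in treated cells. Calcb was higher in treated cells by 1.13 and 1.40 at these days. Nppc, the C-type natriuretic peptide, was lower in treated cells at day 3 (-0.72) and higher at day 5 (0.58), and the second call was lost without both day 5 samples numbered 3 (adjusted p = 0.136, same test).

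Of 6 matrix and adhesion genes, 2 were higher, 1 lower and 3 not past the test in treated cells at day 3, and 1, 1 and 4 at day 5. Prg4, the joint lubricant lubricin, had 7.86, 9.82 and 6.05 CPM in MEFD3min and 147, 162 and 140 CPM in MEFD3plu, 4.22 higher on the log2 scale (adjusted p = 1.85e-12, same test, standard error 0.17). At day 5 it had 24.2, 18.0 and 21.3 CPM in MEFD5min and 16.3, 11.3 and 13.8 CPM in MEFD5plu, a change of -0.46. The peak in treated cells was thus confined among the later groups to day 3, and the interaction of 4.68 was the most positive of the members. The day 5 call was lost without MEFD5min replicate 1, MEFD5plu replicate 3 or MEFD5plu replicate 4, at adjusted p-values of 0.0521 to 0.110. Of the 16 tested matrix genes of cartilage, tendon and joint listed, Prg4 included, 7 were higher and 6 lower at day 3 and 8 higher and 5 lower at day 5.

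Abi3bp, a collagen-associated matrix protein, was higher in treated cells to a like degree at both days, at 3.35 and 3.57 (standard errors 0.09 and 0.09), with 71.9, 72.2 and 66.5 CPM in MEFD3plu and 29.5, 27.9 and 32.2 CPM in MEFD5plu. Mfap4, a protein of elastic microfibrils, went the other way at day 3. It had 51.7, 51.2 and 45.5 CPM in MEFD3min and 3.86, 4.06 and 3.38 CPM in MEFD3plu, a change of -3.74 (standard error 0.18). By day 5 it had 22.6, 17.6 and 25.4 CPM in MEFD5min and 21, 19.5 and 19.8 CPM in MEFD5plu, where the groups overlapped and the difference was 0.03 (0.16), of no fixed sign over the scalings.

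Emcn, which encodes the endothelial sialomucin endomucin, showed no treatment difference past the test, at -0.06 (standard error 0.23) and 0.08 (0.21), the second of no fixed sign over the scalings. It had 5.28, 5.27 and 6.30 CPM in MEFD3min, 5.45, 4.87 and 6.01 CPM in MEFD3plu, 13.8, 8.32 and 17.0 CPM in MEFD5min and 13.7, 9.94 and 13.8 CPM in MEFD5plu. The day 5 samples all lay above the day 3 samples, with rises of 1.12 in untreated and 1.27 in treated cells. The 12 endothelial markers listed, Emcn included, summed to 13.0 to 33.6 CPM over the samples with 3 to 5 of them at the floor in each group. Pecam1 had at most 0.126 CPM and Cldn5 0 CPM as a mean in any group. From MEFD0 to MEFD5plu in the order of the plots, Emcn had means of 0.029, 5.62, 5.44, 13.04 and 12.48 CPM. In the same order Flt1 had 17.02, 2.55, 2.002, 8.80 and 2.53 CPM. Egfl7 had 1.66, 5.42, 5.39, 6.06 and 3.93 CPM, and Cdh5 had 0.893, 0.348, 0, 2.04 and 0.411 CPM. The part of endothelial cells in the Emcn result was not tested beyond these values. Dchs2, a large cadherin, and Tll2, a protease of the tolloid family, were named after their values were seen. Neither differed past the test between treated and untreated cells. From day 3 to day 5 Dchs2 changed by -1.31 in untreated and -0.95 in treated cells, and Tll2 by -1.29 and -1.16.

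Among 8 receptors and channels, 5 were higher and 0 lower in treated cells at day 3, while 3 did not pass, and 5 were higher and 2 lower at day 5. Mc2r, the adrenocorticotropic hormone receptor of adrenal cells and adipocytes, had 9.68, 9.93 and 10.3 CPM in MEFD3min, 60.3, 59.7 and 69.6 CPM in MEFD3plu, 5.06, 3.41 and 6.34 CPM in MEFD5min and 79.9, 72.2 and 79.8 CPM in MEFD5plu. Ms4a4d, a membrane protein of the Ms4a family, had 48.4, 47.9 and 53.8 CPM in MEFD3plu and 94.1, 88.1 and 106 CPM in MEFD5plu, against at most 9.28 CPM in any untreated sample. The treatment differences of Mc2r were 2.65 and 4.10 and those of Ms4a4d 2.70 and 4.59, with interactions of -1.45 and -1.88.

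Stra6, the membrane receptor through which cells take up retinol, behaved unlike these. It had 4.15, 4.41 and 4.14 CPM in MEFD3min, 15.9, 15.2 and 14.3 CPM in MEFD3plu, 6.98, 5.78 and 5.70 CPM in MEFD5min and 5.82, 3.45 and 5.36 CPM in MEFD5plu. Its MEFD3plu samples lay above all others, with a day 3 difference of 1.82 and an interaction of 1.99 (adjusted p = 1.04e-05, same test). Gabra3, a subunit of the GABA-A receptor, also had a positive interaction (1.80), with 1.23 at day 3 and -0.57 at day 5. The day 5 call of Gabra3 was close to the limit (adjusted p = 0.0406, same test) and was lost in 6 alternatives that each left out a single sample, all the day 5 samples but MEFD5min replicate 3 and also MEFD3plu replicate 1. Atp2b4, a plasma membrane calcium pump, did not pass at day 3 (0.15) and was lower in treated cells at day 5 (-1.15, standard error 0.25), with 7.33, 4.54 and 5.98 CPM in MEFD5min and 2.15, 1.99 and 3.09 CPM in MEFD5plu.

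The 10 enzymes split into 6 higher and 3 lower in treated cells at day 3, and 6 higher and 2 lower at day 5. Steap4, a metalloreductase that reduces iron and copper at membranes, had 3 counts in the 3 MEFD0 libraries together. It had 16.8, 15.7 and 17.0 CPM in MEFD3min, 109, 128 and 122 CPM in MEFD3plu, 9.83, 6.87 and 8.26 CPM in MEFD5min and 234, 210.3 and 246 CPM in MEFD5plu. Against the floor at day 0 these means were at least 175-fold, 1268-fold, 88.3-fold and 2440-fold higher. The treatment differences of Steap4 were 2.84 and 4.94 (standard errors 0.11 and 0.13), the second of which was the largest of the members at day 5.

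Aldh1a3, which makes retinoic acid from retinal, was the enzyme lowered most at day 3. It had 94.9, 102 and 73.9 CPM in MEFD3min and 4.31, 6.04 and 3.59 CPM in MEFD3plu, or -4.30 on the log2 scale (adjusted p = 6.62e-10, same test, standard error 0.28). At day 5 it had 45.7, 17.7 and 34.1 CPM in MEFD5min and 25.5, 23.1 and 24.9 CPM in MEFD5plu. These groups overlapped, and the difference of -0.26 did not pass (0.24, adjusted p = 0.395, same test), though it passed at -0.55 without MEFD5min replicate 3. Of the 13 tested retinoid genes listed, Aldh1a3 and Stra6 included, 5 were higher and 6 lower at day 3 and 2 higher and 5 lower at day 5.

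Try5, a trypsin gene, and Tmtc1, a mannosyltransferase, were lower in treated cells at both days. Try5 had 31.9, 26.9 and 30.8 CPM in MEFD3min, 6.48, 8.36 and 8.56 CPM in MEFD3plu, 36.8, 38.6 and 45.5 CPM in MEFD5min and 10.6, 6.64 and 9.75 CPM in MEFD5plu, with no overlap and changes of -1.95 and -2.00. It shares 47.6% of its 50-base stretches with other trypsin genes, most with Try4, so its reads cannot be placed with certainty. Tmtc1 differed by -2.21 at day 3 and -0.84 at day 5. Fmo2, a flavin monooxygenase that oxidises drugs and amines, was higher in treated cells by 0.91 at day 3 and 0.53 at day 5. The day 5 call of Fmo2 was lost when libraries were scaled by total counts alone (adjusted p = 0.0592, same test), and also without MEFD5min replicate 3, MEFD5plu replicate 1 or MEFD5plu replicate 4 (0.0576, 0.0789 and 0.0542). The list of steroid and xenobiotic enzymes, which holds Fmo2, gave 11 higher and 2 lower of 16 tested at day 3 and 12 higher and 1 lower at day 5. B3gnt8, which extends sugar chains on glycoproteins, had a day 3 difference of 0.14 that did not pass and a day 5 difference of 1.35, and 18.1% of its exon bases lie opposite Bckdha.

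The last 10 members act inside the cell or have no known role. Rtl3, derived from a retrotransposon, had 20.6, 24.4 and 17.9 CPM in MEFD3min, 95.5, 110 and 89.8 CPM in MEFD3plu, 3.29, 1.54 and 3.14 CPM in MEFD5min and 44.1, 26.9 and 35.5 CPM in MEFD5plu. Its fall of 3.04 on the log2 scale between MEFD3min and MEFD5min was the largest of the members, and it was higher in treated cells by 2.21 and 3.86. The uncharacterised gene 3930402G23Rik had 9.77, 10.1 and 6.71 CPM in MEFD3min, 4.69, 3.93 and 2.95 CPM in MEFD3plu, 5.09, 2.79 and 3.53 CPM in MEFD5min and 10.8, 10.8 and 10.1 CPM in MEFD5plu. Like the interferon-inducible genes, it was lower in treated cells at day 3 (-1.23) and higher at day 5 (1.62), with an interaction of -2.85. Rtn2, a reticulon of the endoplasmic reticulum, was higher in treated cells by a like amount at both days, at 0.64 and 0.73 (standard errors 0.15 and 0.15). Neither untreated nor treated cells showed a change of Rtn2 past the test from day 3 to day 5. Across the 10 genes, 6 were higher and 2 lower at day 3 and 7 higher and 0 lower at day 5, and 6 fell and 0 rose between the untreated groups.

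The members not yet described were named after their values were seen. Among the receptors and channels, P2ry1, a receptor for extracellular ADP, was higher in treated cells at both days, by 1.54 and 1.63, and 23.1% of its exon bases lie opposite Gm37035. Olr1, a scavenger receptor for oxidised lipoprotein, and Kcne4, a subunit that modulates potassium channels, did not pass at day 3 (Kcne4 at 0.29), while at day 5 the treated cells had more of both (0.65 and 0.97). Among the enzymes, Ggt5, which cleaves glutathione and leukotriene conjugates, and Rnf144a, a ubiquitin ligase, were higher in treated cells at both days, by 1.54 and 1.83 and by 2.25 and 1.81. Cyp2d22, a cytochrome P450, differed by 0.48 at day 3 with an adjusted p of 0.0499, a call lost in 12 alternatives, and by -0.15 at day 5. Of the remaining intracellular members, Bmf, which promotes apoptosis, Rcsd1, which regulates actin capping, and Hsf4, a heat shock transcription factor, were higher in treated cells at both days. The day 3 call of Hsf4 (0.42) was lost without MEFD3min replicate 1 or 4 or MEFD3plu replicate 3 or 4, at adjusted p-values of 0.0729 to 0.127 in the same test. Syt13, a synaptotagmin, did not pass at day 3 (-0.02) and was higher at day 5 (1.54), as untreated cells lost more of it between the days (-2.24) than treated cells (-0.68). Pcp4l1, related to a calmodulin regulator, was lower in treated cells at day 3 (-1.83). Agap2, a GTPase-activating protein, was higher at day 3 by 0.60 in a call lost in 5 alternatives, and Tmem229b, a membrane protein, passed none of the 5 tests.

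**Figure D5:**
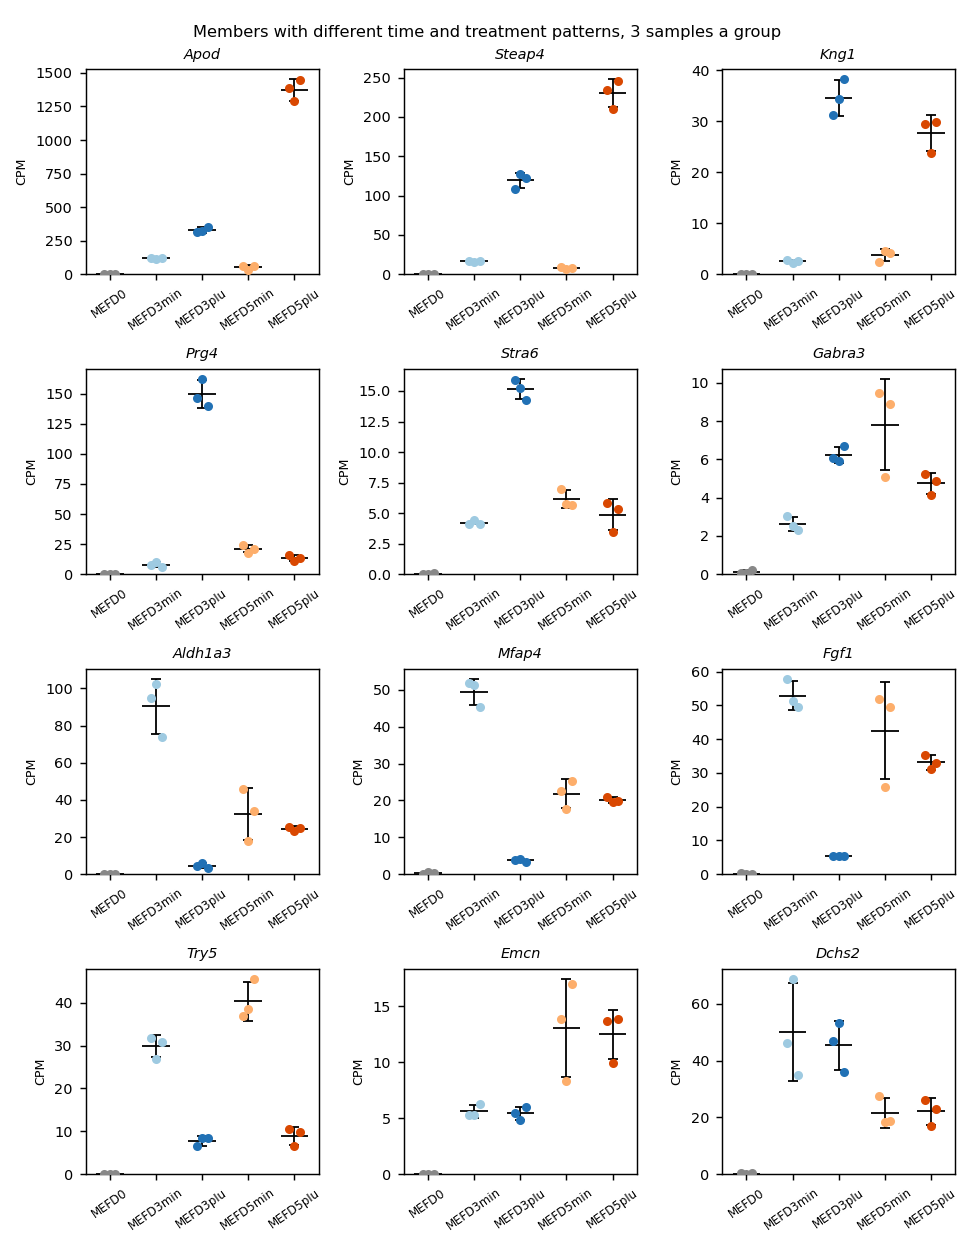
CPM (linear axes from 0) of 12 members in the 5 groups, with 1 point a sample and the mean with its SD over 3 samples. The top row is higher in both treated groups, Prg4 and Stra6 peak in MEFD3plu, Aldh1a3, Mfap4 and Fgf1 are lowest of the later groups in MEFD3plu, Try5 is lower in both treated groups, and Emcn and Dchs2 follow the day rather than the treatment.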

How the data were processed

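RNA-Seq was run on 15 samples in 5 groups of 3. The authors deposited raw counts per Ensembl gene, made with TopHat2 2.1.0 and HTSeq on GRCm38 (mm10) per the submitters' processing notes. The annotation release and strand setting are not given in the sources used here, and sources differ on whether the kit kept strand, so genes with an antisense partner are uncertain. GENCODE M21 named 46091 of 46603 identifiers. Totals of 24030558 to 37281126 counts per sample set the precision, and floors of 3 counts cover counting error only.

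Genes kept by filterByExpr (15997) were fitted together over all 15 samples with TMM scaling in edgeR 4.0.16 (R 4.3.3), and an adjusted p under 0.05 was called. DESeq2 1.42.0, other scalings, no filter, a minimum of 2-fold, a replicate block and leaving out single samples were alternatives. The code was checked on simulated counts. Members, lists and roles were chosen with earlier results of these data known. Named by rule were 30 members: the 12 with the highest mean CPM, the 5 most increased and 5 most decreased called in each treatment comparison and the interaction, those on a list, the 3 nearest each limit and neighbouring pairs. Any other member, Ifi205 included, was named after its values were seen, and 1 member is counted but not reported here. Deviations from group means correlated weakly between same-numbered MEFD3min and MEFD3plu samples (0.143, 0.228 and 0.360), against -0.271 to 0.0677 for differently numbered ones. Same-numbered values with MEFD0 were 0.0837 to 0.180 for MEFD3min and 0.0706 to 0.124 for MEFD3plu. Between MEFD5min and MEFD5plu they were -0.00453 to 0.0538. Numbers may thus pair samples up to day 3, but the labels do not say what they share, and the main fit used no pairing.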

Additional observations from a re-analysis of the deposited data

Results flagged for a closer look

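The treatment difference at day 3 minus that at day 5 passed the interaction test of edgeR for 22 of the 29 genes named by rule and reported. It was negative for Iigp1 (-8.52), Mpeg1 (-7.14), Ifi206 (-6.32), Ifi208 (-5.29) and Slfn2 (-5.12), which are 5 of the 6 interferon-inducible genes. It was also negative for Aldh1a3 (-4.05), Mfap4 (-3.77), Apod (-3.43), 3930402G23Rik (-2.85), Steap4 (-2.10), Abca8a (-2.01), Ms4a4d (-1.88), Rtl3 (-1.65), Ccl11 (-1.52), Mc2r (-1.45), Tmtc1 (-1.36), B3gnt8 (-1.21) and Chrdl1 (-0.64). It was positive for Prg4 (4.68), Stra6 (1.99), Gabra3 (1.80) and Atp2b4 (1.30). The call of Chrdl1 was lost in 7 of 22 alternatives, the minimum of 2-fold not among them. Groups of 3 samples are too small for a test of single outlying samples.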

How the results depend on the processing

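The number of members depended on the limits. It was 97 with a day 0 limit of 1 CPM, 114 with a later minimum of 1 CPM and 21 with a later minimum of 5 CPM, and 50 to 58 with single samples left out. Of 41 calls at day 5, 6 were lost in at least 1 of 22 alternatives, as were 3 of 43 at day 3 and 5 of 34 in the interaction, and 0 turned direction. Members lower in treated cells at day 5 numbered 2 with a minimum of 2-fold and 3 to 8 with single samples left out, against 6. Those that fell from MEFD3plu to MEFD5plu numbered 7 with a minimum of 2-fold, against 14. The minimum of 2-fold is not among the 22. Some signs turned for differences that had not passed. Emcn at day 5 was -0.0714 and its interaction 0.0284, Rtn2's interaction was 0.0895 and Mfap4 at day 5 was -0.125 when libraries were scaled by totals only, which shifted the median of all genes by -0.16 at day 5 and 0.18 in the interaction. Mfap4 at day 5 was -0.00963 with DESeq2 and -0.00997 with its size factors in edgeR. With the replicate block the members were 28 higher and 15 lower at day 3, 35 and 6 at day 5 and 8 and 28 in the interaction. The block ended no call at day 3 and brought the interactions of Kng1 (0.62) and Kng2 (0.66) past the test. The causes of these changes were not tested.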
